A study of Homo sapiens with 12 samples.

Results

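The genes described here are 9 brakes on TGFbeta signalling: SMAD7, SMAD6, SMURF1, SMURF2, SKIL, SKI, TGIF1, PMEPA1 and BAMBI. They were chosen by symbol, with earlier results of these data known. They make up 9 of 13555 genes listed in at least 1 of 2 expression tables. All 9 are among 13407 genes of the first table and 8, all but SMAD6, among 11504 of the second. RNA-seq profiled MCF-12A cells, a cell line of human breast epithelium that is not tumour-derived, after TGFbeta1 or vehicle (the control). All libraries came from this line, and no dose, duration or genetic change is stated in the labels. There were 6 control and 6 TGFbeta1 libraries in 2 tables, the first set with replicates 1, 2 and 3 of both groups and the second set with replicates 4, 5 and 6. Values are FPKM, fragments scaled by transcript length and by library, and they were summed over the protein-coding transcripts of each gene. Depth is unknown because no counts were used. The labels do not say whether replicates were separate cultures, so the p-values speak to the scatter among these libraries alone, and that scatter may be technical. The question was how each brake differs between TGFbeta1 and vehicle within each set, and whether the sets differ.

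TGFbeta binds a pair of serine/threonine kinase receptors at the cell surface, which phosphorylate SMAD2 and SMAD3. These join SMAD4 and enter the nucleus, where they switch target genes on and off. Several of those targets encode inhibitors of the same chain, so that a cell exposed to the ligand builds up its own brakes. SMAD7 and SMAD6 occupy or mark the receptors, SMURF1 and SMURF2 ubiquitinate pathway proteins for degradation, SKIL, SKI and TGIF1 repress SMAD-bound genes, and PMEPA1 and BAMBI are membrane proteins that withhold SMADs or imitate a receptor.

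In the first set 6 of the 8 tested brakes rose with TGFbeta1 and none fell: PMEPA1, SKIL, SMAD7, SMURF1, SMURF2 and SKI. The rises ran from 8.82-fold for PMEPA1 to 1.46-fold for SKI in mean FPKM. TGIF1 and BAMBI did not pass the test, and SMAD6 was too low to be tested. In the second set none of the 8 tested brakes passed the test in either direction (limma), with 2, SMURF2 and PMEPA1, at an unadjusted p under 0.05. For 5 of them, PMEPA1, SKIL, SMAD7, SMURF1 and SKI, the change with TGFbeta1 was lower in the second set than in the first by a direct test of that difference, in which each change is taken within its own table.

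A gene was tested where its mean reached 1 FPKM over the libraries of a fit, and was called at an adjusted p under 0.05 (limma on log2(FPKM + 1), Benjamini-Hochberg over all genes tested). Of all genes tested in the first set, 20.9% were called in either direction and 9.0% were called higher, against 6 of the 8 brakes. The median log2 change was 0.788 over the tested brakes and -0.055 over all genes. In the second set 0.321% of all genes were called, a background at which no call among 8 genes says little about the brakes. The median there was -0.029 for the brakes. FPKM summed to 307852 to 318270 per control and to 291802 to 293787 per TGFbeta1 library in the first set. After rescaling every library to one common sum, 1164 genes were called higher and 855 lower, against 941 and 1245 as deposited, and the brakes again gave 6 calls, all higher.

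**Figure D1:**
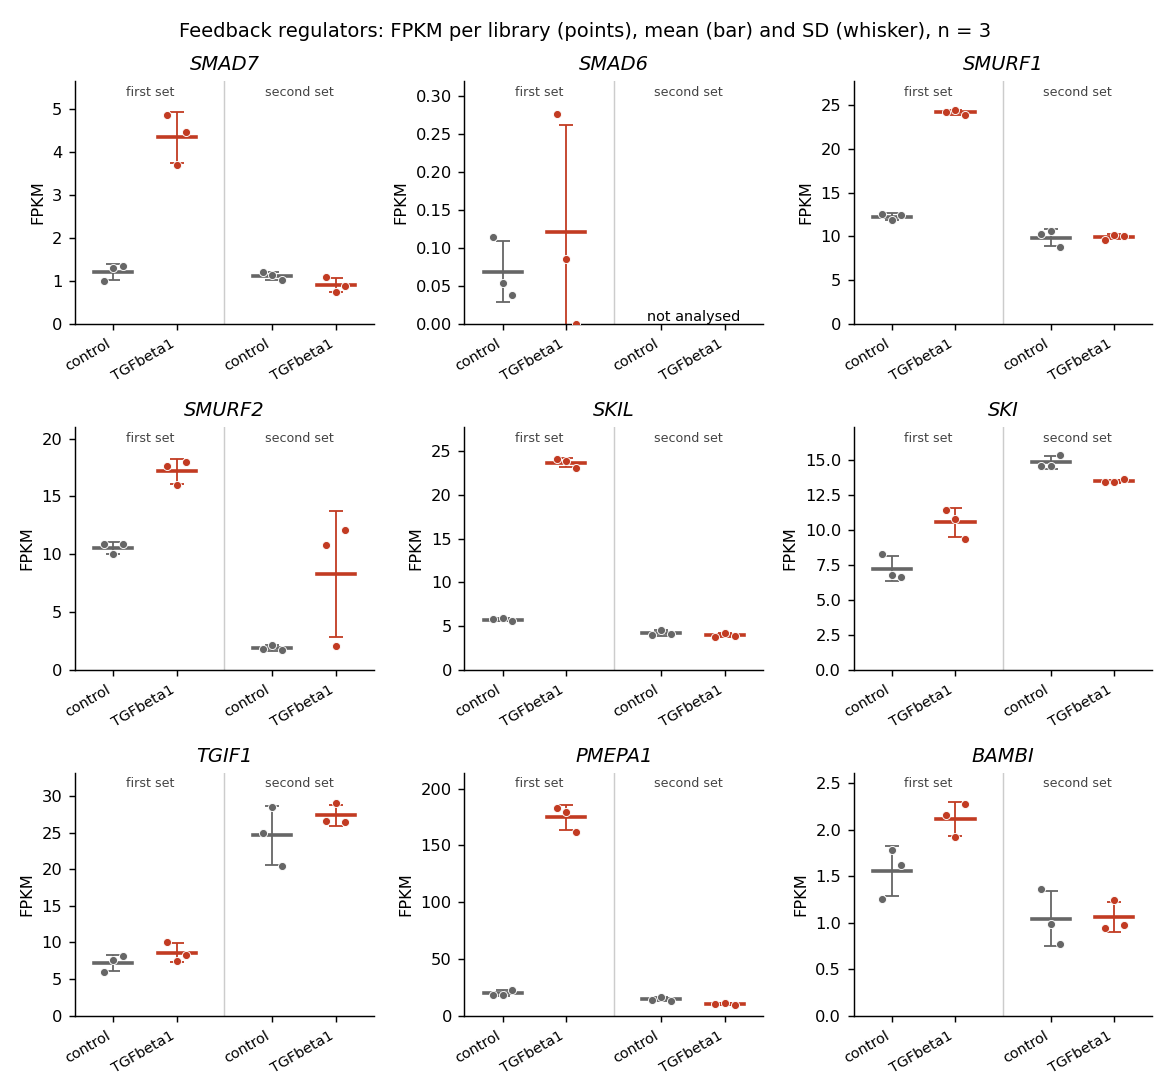
FPKM of each brake (vertical axis, linear, a separate scale per gene) in control (grey) and TGFbeta1 (red) libraries of the first set (left of the line) and second set (right); points are libraries, horizontal bars means and whiskers SD (n = 3), cut at 0 for SMAD6. In the first set every TGFbeta1 point of SMAD7, SMURF1, SMURF2, SKIL, SKI, PMEPA1 and BAMBI lies above every control point, while in the second set only SKI and PMEPA1 separate, with TGFbeta1 lower.

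The inhibitory SMADs come first. On hg19, SMAD7 (ENSG00000101665.8_1) lies on the minus strand of chromosome 18, 46446223 to 46477081. Its product blocks access of SMAD2 and SMAD3 to the receptor and recruits SMURF ligases to it. First-set SMAD7 values were 0.999, 1.31 and 1.35 FPKM in controls 1, 2 and 3, and 4.87, 3.71 and 4.47 under TGFbeta1. The groups did not overlap, and the lowest TGFbeta1 library was far above the highest control. The log2 change was 1.27 (SE 0.12, adjusted p = 0.00199), a 3.57-fold rise in mean FPKM. Second-set SMAD7 values were 1.199, 1.15 and 1.03 FPKM in controls 4, 5 and 6, and 1.09, 0.748 and 0.894 under TGFbeta1. There the groups overlapped at levels near the minimum for testing, with a log2 change of -0.16 (95% interval -0.42 to 0.11, adjusted p = 0.653). The difference between the sets was -1.42 (SE 0.16, adjusted p = 0.000246).

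SMAD6, the inhibitory SMAD that acts mainly on BMP signalling, was close to 0. Its locus on hg19 is chromosome 15, 66994566 to 67075186, plus strand. Controls 1 to 3 were listed at 0.114, 0.054 and 0.037 FPKM, and TGFbeta1 libraries 1 to 3 at 0.275, 0.085 and 0. The groups overlapped below the minimum for testing, so no change is called for it, and SMAD6 was not analysed in the second set.

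The 2 SMURF genes encode ubiquitin ligases of the HECT class that SMAD7 brings to the receptors. SMURF1 (chromosome 7, 98625061 to 98741723 on hg19, minus strand) rose with the smallest SE of the 8 tested. Controls 1 to 3 were at 12.5, 11.8 and 12.4 FPKM and TGFbeta1 libraries 1 to 3 at 24.2, 24.4 and 23.9. This is close to a doubling (1.97-fold), with treated libraries at 24.2 ± 0.272 FPKM (SD, n = 3) and a log2 change of 0.92 (SE 0.06, adjusted p = 0.000576). Controls 4 to 6 were at 10.2, 10.6 and 8.74 FPKM and TGFbeta1 libraries 4 to 6 at 9.64, 10.2 and 10.1. Those groups overlapped, and the 95% interval of the log2 change, -0.20 to 0.23 around 0.02, did not reach the value of the first set. The change was lower in the second set by 0.91 on the log2 scale (adjusted p = 0.000435).

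SMURF2 (chromosome 17, 62541483 to 62658186 on hg19, minus strand) also rose in the first set, from 10.9, 9.97 and 10.8 FPKM to 17.7, 16.0 and 18.0. The groups did not overlap, and the log2 change was 0.65 (SE 0.08, adjusted p = 0.00420). That call was lost in a single fit over all 12 libraries, which shares one spread between the sets (adjusted p = 0.333). In the second set SMURF2 was uneven: controls 4 to 6 were at 1.78, 2.15 and 1.71 FPKM, and TGFbeta1 libraries 4, 5 and 6 at 10.8, 2.02 and 12.1. Libraries 4 and 6 lay above all controls while library 5 lay among them. The log2 change of 1.43 had a 95% interval of 0.04 to 2.83 and did not pass the test (adjusted p = 0.433). Without TGFbeta1 5 it was 2.11 with an adjusted p of 0.0285. As that was the treated library among the controls, leaving it out had to raise the change. Of 17 alternatives no other passed (adjusted p up to 0.660). The difference between the sets did not pass either (0.78, adjusted p = 0.471). It was 1.46 with an adjusted p of 0.000233 without TGFbeta1 5, and 0.40 with an adjusted p of 0.731 without TGFbeta1 6. Of 22 alternatives for the difference only the removal of TGFbeta1 5 passed.

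Among the nuclear corepressors, SKIL and SKI encode related proteins that bind SMAD complexes on DNA and recruit histone deacetylases, and SKIL (SnoN) is a classical early target of the pathway. SKIL (chromosome 3, 170075503 to 170114623 on hg19, plus strand) had 5.80, 5.89 and 5.53 FPKM in controls 1 to 3 against 24.1, 23.9 and 23.1 in the matching TGFbeta1 group. The groups were far apart against a spread of 0.186 and 0.539 FPKM (SD, n = 3 each), and the log2 change was 1.87 (SE 0.07, adjusted p = 7.8e-05). Second-set SKIL values were 3.999, 4.599 and 4.05 FPKM in controls and 3.72, 4.203 and 3.92 under TGFbeta1. Those groups overlapped, with a log2 change of -0.08 (95% interval -0.29 to 0.14, adjusted p = 0.798), and the sets differed by -1.95 (adjusted p = 2.0e-06).

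SKI (chromosome 1, 2160134 to 2241558 on hg19, plus strand) moved less. Its first-set values were 8.29, 6.78 and 6.64 FPKM in controls and 11.5, 10.8 and 9.40 under TGFbeta1 (log2 change 0.49, SE 0.12, adjusted p = 0.0379). The groups did not overlap, but the call was lost without control 2, control 3, TGFbeta1 1 or TGFbeta1 2 (adjusted p of 0.0863 to 0.110). Second-set values were 14.6, 14.6 and 15.4 FPKM in controls and 13.4, 13.5 and 13.6 under TGFbeta1. Here every treated library lay below every control, yet the log2 change of -0.13 (95% interval -0.27 to 0.01) did not pass the test (adjusted p = 0.479). The change was lower in the second set by 0.62 on the log2 scale, which passed the test of the difference (adjusted p = 0.0135).

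TGIF1, a homeodomain corepressor that competes with coactivators for SMAD2, did not pass the test in either set. It lies on chromosome 18, 3447607 to 3459976 on hg19, plus strand. TGIF1 values were 5.98, 7.60 and 8.08 FPKM in controls 1 to 3, and 10.02, 7.5 and 8.29 under TGFbeta1, with overlapping groups. The log2 change was 0.22 (95% interval -0.14 to 0.59, adjusted p = 0.340). Controls 4 to 6 gave 24.99, 28.6 and 20.5 FPKM and the TGFbeta1 libraries 26.6, 29.1 and 26.5, again overlapping. Its log2 change there was 0.16 (95% interval -0.15 to 0.46, adjusted p = 0.697), and the sets differed by -0.07 (95% interval -0.53 to 0.39, adjusted p = 0.877).

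The membrane inhibitors gave the widest contrast. PMEPA1 encodes a membrane protein that holds SMAD2 and SMAD3 away from the receptor complex, and lies on chromosome 20, 56223448 to 56286592 on hg19, minus strand. First-set PMEPA1 values were 18.4, 18.3 and 22.8 FPKM in controls and 182.6, 179.6 and 162.1 under TGFbeta1. The lowest treated library was several times the highest control, and the log2 change of 3.08 (SE 0.11, adjusted p = 7.8e-05) was the largest of the 8 tested. Second-set PMEPA1 values were 13.8, 16.2 and 13.1 FPKM in controls and 10.3, 11.5 and 9.58 under TGFbeta1. The groups again did not overlap, in the other direction, but the log2 change of -0.43 (95% interval -0.69 to -0.16, not adjusted for the number of genes) did not pass the test over all genes (adjusted p = 0.258). The difference between the sets was -3.51 (SE 0.16, adjusted p = 4.9e-07).

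BAMBI, a receptor lookalike with no kinase domain, was low throughout. It lies on chromosome 10, 28966271 to 28971868 on hg19, plus strand. First-set BAMBI values were 1.26, 1.78 and 1.63 FPKM in controls and 2.16, 1.92 and 2.28 under TGFbeta1. The groups did not overlap, but the log2 change of 0.29 (95% interval 0.01 to 0.58) had an adjusted p of 0.135. Second-set values were 1.36, 0.989 and 0.773 FPKM in controls and 0.947, 1.24 and 0.980 under TGFbeta1, with overlapping groups and a log2 change of 0.02 (adjusted p = 0.974).

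**Figure D2:**
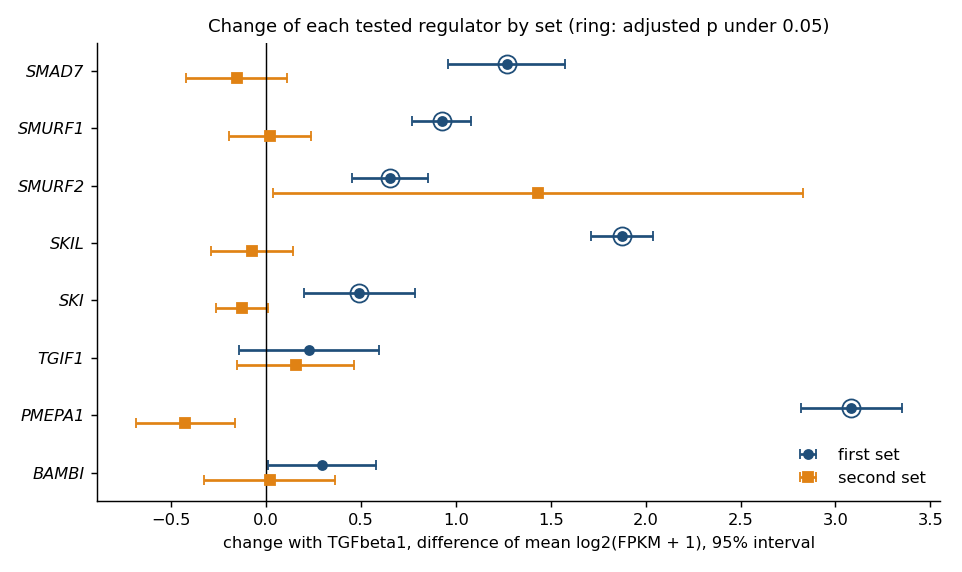
Difference of mean log2(FPKM + 1), TGFbeta1 minus control (horizontal axis), for the 8 tested brakes in the first set (blue circles) and second set (orange squares); lines are 95% intervals and rings mark an adjusted p under 0.05. All 6 rings are in the first set, from 0.49 for SKI to 3.08 for PMEPA1, while second-set points lie between -0.43 and 0.16 except SMURF2 at 1.43.

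Separation of groups was common among all genes and has to be read against that. In the first set 7 of the 8 tested brakes had every TGFbeta1 library above every control, against 18.2% of all genes tested. Second-set groups that did not overlap in either direction were seen for 2 of the 8, SKI and PMEPA1, against 19.3% of all genes, so that share is near the background. In the test of the difference between the sets 13.6% of all genes were called and 6.04% had a lower change in the second set, against 5 of the 8 brakes, all lower. After the same rescaling, 534 genes had a higher and 768 a lower change in the second set, against 797 and 639 as deposited, and the brakes again gave 5 calls.

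The order of the brakes by level also differed between groups, on the FPKM scale, which is per length. In the first set's controls PMEPA1 was highest at 19.8 ± 2.56 FPKM (SD, n = 3), followed by SMURF1 and SMURF2. SKI and TGIF1 were next at 7.24 ± 0.915 and 7.22 ± 1.101 FPKM (SD, n = 3), a difference within their spread. SKIL, at 5.74 ± 0.186 FPKM (SD, n = 3), was sixth, above BAMBI, SMAD7 and SMAD6. With TGFbeta1, PMEPA1 stayed first at 174.8 ± 11.1 FPKM (SD, n = 3), and SKIL reached 23.7 ± 0.539, within its spread of SMURF1 at 24.2 ± 0.272. SMAD7 passed BAMBI, at 4.35 ± 0.588 against 2.12 ± 0.181 FPKM (SD, n = 3). In the second set TGIF1 led both groups, at 24.7 ± 4.07 FPKM without and 27.4 ± 1.46 FPKM under TGFbeta1 (SD, n = 3). SMAD7 and BAMBI were lowest there, at 1.123 ± 0.089 and 1.04 ± 0.297 FPKM in controls, within their spread of each other. The tables were made separately, so levels are not compared across them.

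Transcript values showed which isoforms carried the sums. Of 14 transcripts of these genes tested in the first set, 8 rose and none fell (limma per transcript, adjusted over all 18105 transcripts tested, of which 5.54% were called). Without the minimum of 1 FPKM, 6 were called, ENST00000458537 of SKIL (adjusted p = 0.0505) and ENST00000262435 of SMURF2 (adjusted p = 0.0695) being lost. PMEPA1 was mostly ENST00000341744, which held 88.4% of the gene's FPKM in the controls and 83.3% with TGFbeta1, and went from 17.5 ± 2.26 to 145.5 ± 9.82 FPKM (SD, n = 3; adjusted p = 0.000506). Its second transcript, ENST00000347215, rose from 1.55 ± 1.43 to 20.4 ± 3.79 FPKM (adjusted p = 0.0276), and ENST00000395819 from 0.148 ± 0.105 to 2.06 ± 0.247 (adjusted p = 0.0124). SKIL rose in both of its main transcripts, ENST00000259119 (3.74 ± 0.694 to 15.3 ± 1.065 FPKM) and ENST00000458537 (1.45 ± 0.940 to 6.62 ± 0.445), and their shares of the gene were close in the group means (65.2% and 64.6% for the first). In control 2 ENST00000458537 held 42.9% of SKIL, against 14.0% and 18.3% in controls 1 and 3. SMAD7 was mostly ENST00000262158, at 92.3% of the gene in the controls and 98.2% with TGFbeta1. SMURF1 and SMURF2 were mostly ENST00000361368 and ENST00000262435, but control 3 had 20.2% of SMURF1 on ENST00000361125. The single SKI transcript did not pass this test (adjusted p = 0.126), although the gene did with the same values.

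None of the 17 transcripts tested in the second set passed, at a background of 0.221% of 20392 (limma), with 2 at an unadjusted p under 0.05, ENST00000262435 of SMURF2 and ENST00000407501 of TGIF1. As in some first-set controls, the split between transcripts shifted in single libraries. PMEPA1 in control 5 had 10.2 FPKM on ENST00000265626, which was listed at 0 in the other 5 libraries, and 0.943 on ENST00000341744, which held 8.01 to 10.8 in the others. SKIL in TGFbeta1 6 had 0.318 FPKM on ENST00000259119 and 3.60 on ENST00000458537, the reverse of the other libraries, with an ordinary sum of 3.92. TGIF1 in control 6 was listed at 0 for ENST00000549780 and at 4.88 FPKM for ENST00000551541. SMURF2 was different in that its sum moved: TGFbeta1 4 had 10.8 FPKM on ENST00000262435 and 0 on ENST00000585301, and TGFbeta1 6 had 7.09 and 5.01. Whether the assignment of fragments between transcripts bears on the SMURF2 values was not tested. SMAD7 had a different make-up from the first set, with ENST00000262158 at 39.1% of the gene in controls and 57.5% with TGFbeta1. That transcript went from 0.440 to 0.523 FPKM and ENST00000589634 from 0.684 to 0.387, all under the minimum for testing. In the authors' deposited table for this set, none of 23 transcripts of these genes had a q-value under 0.05, against 0.0959% of all transcripts, and the lowest q-value was 0.439, for SKI. There 2 of the 23 had a p-value under 0.05, 1 of SKI and 1 of TGIF1, against 6.99% of all transcripts.

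**Figure D3:**
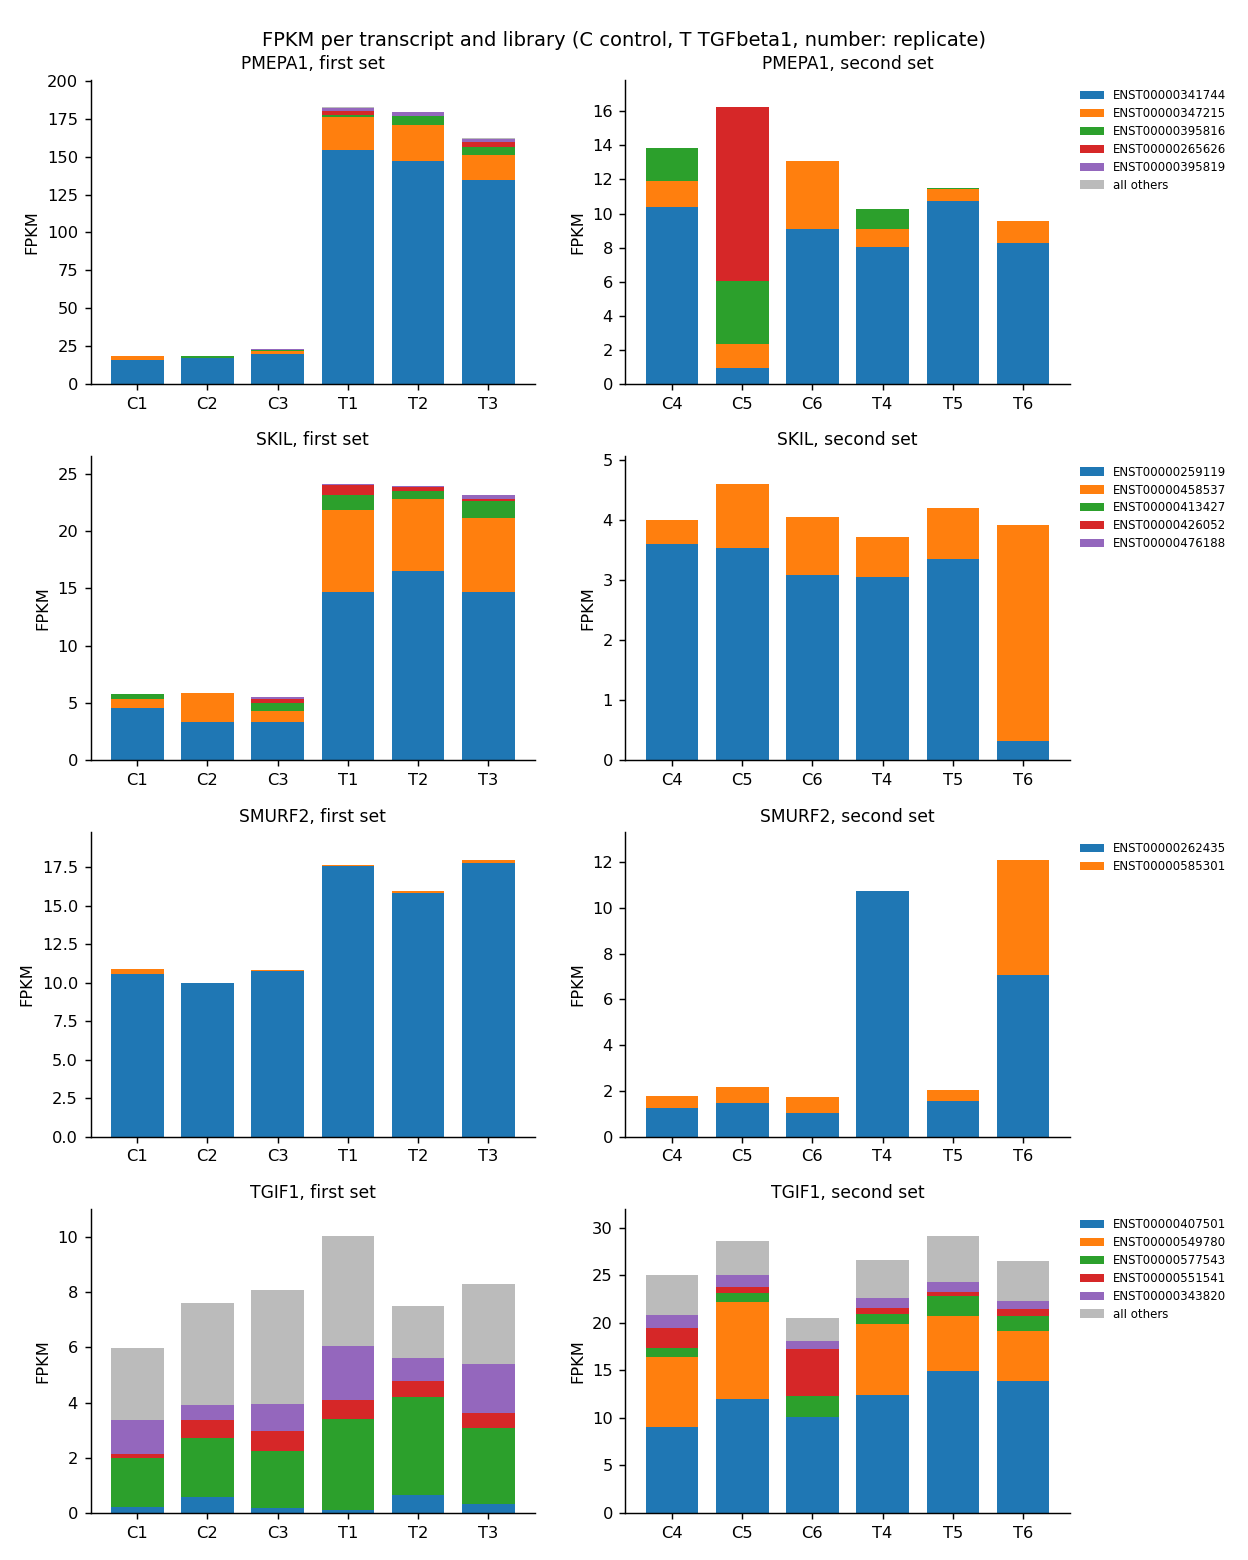
Stacked FPKM per transcript (vertical axis, linear from 0) in each library (C control, T TGFbeta1, with the replicate number) for PMEPA1, SKIL, SMURF2 and TGIF1 in the first set (left) and second set (right); colours are transcripts (at most 5, those with the highest means) and grey all others. PMEPA1 and SKIL rise in all 3 first-set TGFbeta1 libraries with a similar make-up, whereas single second-set libraries (C5 for PMEPA1, T6 for SKIL, C6 for TGIF1) change make-up and SMURF2 is high in T4 and T6.

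Promoter windows of the brakes are shown because SMAD7, SKIL and PMEPA1 are known SMAD targets and their windows can be read for SMAD-binding letters. RefSeq windows (GRCh38.p14, 250 bases before to 50 after a gene start, 5′ to 3′ on the gene's strand) matched 8 of the 9 genes with 19 windows, several genes having more than 1 start. The windows printed are those of SMAD7, SKIL and PMEPA1, the genes with the largest log2 rises, and of SMAD6, which has the palindrome. Where a gene has several windows, the one with the most CAGAC matches is shown. Capitals mark the SMAD-binding letters CAGAC (or GTCTG, the same on the other strand) and the palindrome GTCTAGAC. GTCTAGAC holds neither CAGAC nor GTCTG.
SMAD7, chr18:48950916-48951215, minus strand: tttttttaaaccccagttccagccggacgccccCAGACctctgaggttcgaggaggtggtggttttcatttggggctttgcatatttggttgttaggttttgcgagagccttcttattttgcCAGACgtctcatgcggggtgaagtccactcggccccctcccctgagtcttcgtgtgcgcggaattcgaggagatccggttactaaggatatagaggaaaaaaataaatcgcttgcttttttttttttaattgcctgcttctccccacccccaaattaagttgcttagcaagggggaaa
SKIL, chr3:170357465-170357764, plus strand: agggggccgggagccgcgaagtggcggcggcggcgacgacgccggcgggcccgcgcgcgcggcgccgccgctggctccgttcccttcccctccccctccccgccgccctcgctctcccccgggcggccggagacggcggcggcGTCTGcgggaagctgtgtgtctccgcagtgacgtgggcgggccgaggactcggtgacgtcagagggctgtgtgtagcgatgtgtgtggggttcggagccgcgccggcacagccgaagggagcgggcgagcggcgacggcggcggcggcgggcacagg
PMEPA1, chr20:57709966-57710265, minus strand: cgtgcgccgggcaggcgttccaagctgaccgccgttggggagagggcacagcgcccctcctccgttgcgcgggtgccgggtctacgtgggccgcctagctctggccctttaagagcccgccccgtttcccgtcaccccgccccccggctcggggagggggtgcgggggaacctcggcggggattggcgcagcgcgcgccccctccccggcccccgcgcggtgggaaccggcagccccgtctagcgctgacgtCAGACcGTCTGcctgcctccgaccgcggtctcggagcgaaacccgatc
SMAD6, chr15:66701986-66702285, plus strand: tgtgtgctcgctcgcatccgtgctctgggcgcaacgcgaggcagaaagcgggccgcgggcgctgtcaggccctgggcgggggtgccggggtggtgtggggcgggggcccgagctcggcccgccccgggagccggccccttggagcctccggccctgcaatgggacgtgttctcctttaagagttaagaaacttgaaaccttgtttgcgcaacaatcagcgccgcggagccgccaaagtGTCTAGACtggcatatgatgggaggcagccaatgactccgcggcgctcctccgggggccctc

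The SMAD7 window held CAGAC at 217 and 128 bases before the start, the SKIL window GTCTG at 107 before it, and the PMEPA1 window 2 matches, from bases 3 and 9 counted from it. In GENCODE 29, on the same assembly, ENST00000259119 of SKIL starts 11 bases after the gene start of its window. ENST00000341744 of PMEPA1 and ENST00000262158 of SMAD7 start outside all windows of their genes. No listed SMAD7 transcript starts inside any SMAD7 window. The stretch just before ENST00000262158 was therefore not searched, for CAGAC or for GTCTAGAC. GTCTAGAC was found in 1 of the 19 windows, that of SMAD6 at 12 bases before the start, and in 0.202% of all 35116 windows of the same length. SMAD6 is also the gene with the lowest level of the 9. CAGAC on either strand was found in 14 of the 19 windows and in 45.3% of all windows. The windows are not independent, as TGIF1 has several, and its windows from 3449318 and from 3449457 overlap and hold the same match. Per gene, 7 of the 8 had 1 or more matches, a count for which no share over all genes was taken. The GC-rich element GGCGC on either strand was also in 14 of the 19, against 48.6% of all windows. A match is a stretch of letters, and binding was not measured here.

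The rest of the pathway gives the setting. Lists of ligands, receptors, signalling SMADs, extracellular antagonists, other intracellular inhibitors and direct targets were read from the same fits. These lists were chosen with earlier results of these data known, so high counts in them are not independent support. In the first set 10 of 16 tested direct targets rose and 3 fell, with a median log2 change of 1.75. Among all genes tested in that set, 20.9% were called and 9.0% were called higher. TGFBI, a secreted matrix protein, rose by 2.23 on the log2 scale, FN1 (fibronectin) by 2.96 and the integrin subunit ITGB6 by 3.70. ID1 and ID3, which antagonise helix-loop-helix transcription factors and are repressed by TGFbeta in epithelia, fell by 0.84 and 0.50.

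None of the 5 tested signalling SMADs passed in either set (limma), with 1 in each at an unadjusted p under 0.05, and their median in the first set was -0.11. Of 9 tested receptors 2 rose and none fell in the first set, near the 20.9% of all genes called there in either direction. Called higher were 9.0% of all genes. Those shares are also the background for the other first-set counts of this paragraph. TGFBR1, the type I receptor, rose from 4.93 ± 0.381 to 11.4 ± 0.651 FPKM (SD, n = 3; adjusted p = 0.00107), and BMPR2 by 0.76 on the log2 scale. Of 5 tested ligands TGFB1 and INHBA, the activin A subunit, rose (log2 changes 1.14 and 1.96), while TGFB2 fell by 1.39. The TGFB1 call was lost with the replicate block and without TGFbeta1 1, 2 or 3 (adjusted p up to 0.0659), and the TGFBR1 call in 1 fit over all 12 libraries (adjusted p = 0.0765). Of 7 tested extracellular antagonists 4 rose and none fell. LTBP1, which tethers latent TGFbeta to the matrix, and its relative LTBP2, which is also among the direct targets, rose by 1.41 and 1.85.

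The list called other intracellular inhibitors is mixed, as it also holds deubiquitinases that can favour the pathway, UCHL5 among them. Of its 21 genes tested in the first set 1 rose and 5 fell, with a median log2 change of -0.13. That is near the 20.9% of all genes called in that set, of which 941 were higher and 1245 lower as deposited and 1164 and 855 after rescaling to a common sum. FKBP1A, which shields the type I receptor from activation, rose by 0.32, a call lost in 6 of 17 alternatives (adjusted p up to 0.0650). PPM1A, a phosphatase of SMAD2 and SMAD3, fell from 9.43 ± 0.751 to 5.03 ± 0.548 FPKM (SD, n = 3), a log2 change of -0.79 (adjusted p = 0.00539). UCHL5, a deubiquitinase that SMAD7 can bring to the receptor, fell by 0.48, a call lost with the replicate block (adjusted p = 0.0507).

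In the second set, where 0.321% of all genes were called, 2 genes of these lists passed, both lower. CTGF, a secreted target of the pathway, fell from 46.0 ± 2.99 to 29.8 ± 1.46 FPKM (SD, n = 3), a log2 change of -0.61 (adjusted p = 0.0491). DCN, a proteoglycan that binds TGFbeta, fell from 28.6 ± 1.97 to 12.5 ± 1.82 (log2 change -1.14, adjusted p = 0.0380). Of 17 alternatives the CTGF call was lost in 13 and the DCN call in 8, both with the replicate block and without control 4, 5 or 6 or TGFbeta1 4 or 6 (adjusted p up to 0.242). DCN had risen in the first set, from 0.594 ± 0.099 to 2.78 ± 0.985 FPKM (SD, n = 3), a log2 change of 1.21 (adjusted p = 0.0142). TGFBI had a log2 change of -1.42 with an adjusted p of 0.288. It passed in 1 of 17 alternatives, without TGFbeta1 4, the treated library nearest the controls (adjusted p = 0.0430). In the others the adjusted p ran up to 0.524. The direct targets had a median log2 change of -0.11 there. At an unadjusted p under 0.05 (limma) were 6 of 16 direct targets, all lower but ID1. So were 7 of 9 genes of the extracellular antagonist list, all lower but FST, with LTBP2 in both lists. Ligands had 1 of 5, receptors 1 of 8 and other intracellular inhibitors 2 of 22, against 1182 of 10579 genes. FN1 (log2 change -0.74, adjusted p = 0.226) and ID1 (0.39, adjusted p = 0.0849) did not pass, each with the opposite sign to the first set.

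**Figure D4:**
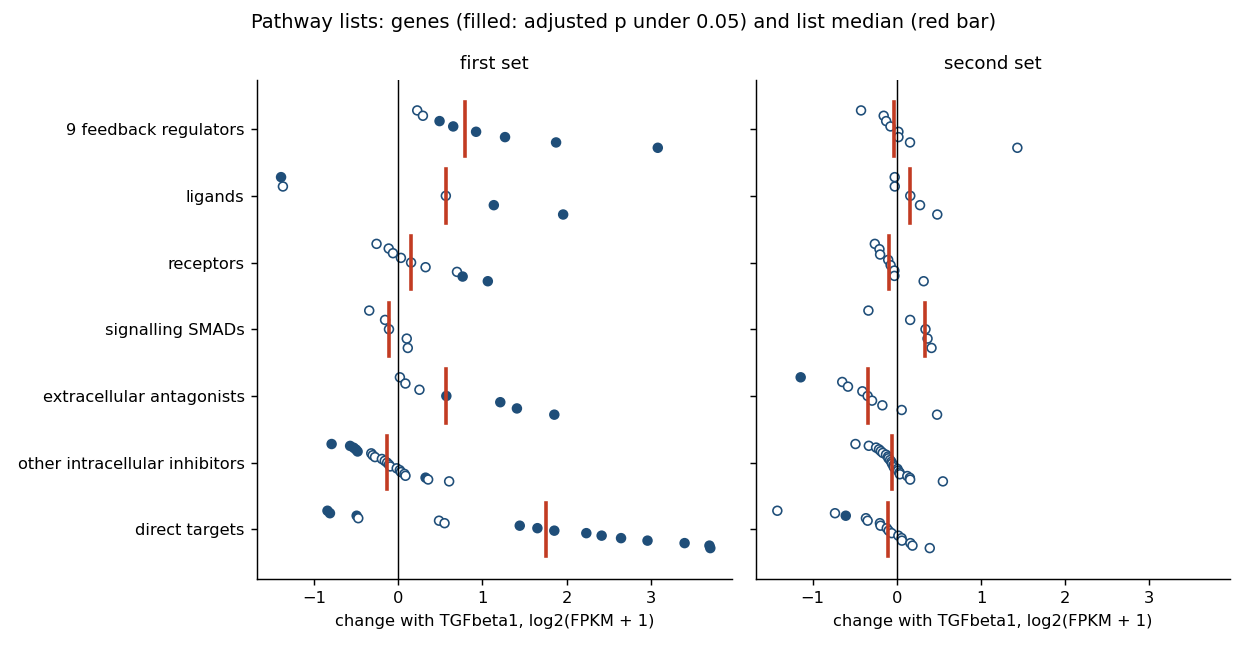
Change with TGFbeta1 on the log2(FPKM + 1) scale (horizontal axis) for the tested genes of each list in the first set (left) and second set (right); filled points have an adjusted p under 0.05 and red bars are list medians. The brakes lie right of 0 in the first set with a median of 0.788, beside direct targets at 1.75 and other intracellular inhibitors at -0.13, and the second-set medians lie between -0.35 and 0.34.

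To find genes whose values resembled those of SMAD7, each of 10005 other genes tested in both sets was centred on its mean within each set and compared over the 12 libraries. The nearest were FNDC4, ETNK1 and STK17B, with root-mean-square differences of 0.099, 0.10 and 0.11 on the log2 scale against a median of 0.53 over all genes. Chosen in this way from the same values, their changes had to lie near those of SMAD7. FNDC4 rose by 1.13 in the first set and was at -0.14 in the second. ETNK1, an ethanolamine kinase, rose by 1.45 and was at -0.16, and STK17B, a serine/threonine kinase, rose by 1.22 and was at -0.03. Of the brakes SMURF1 was nearest, at 0.18 (60th in rank), and SMURF2 farthest at 0.75. PMEPA1, with its larger first-set rise, was at 0.66, above the median of all genes, because the measure weighs size as well as pattern.

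The line's label was checked against marker genes. All 10 epithelial markers were present in both sets, with KRT5 at 1365 and 475 FPKM on average in the controls of the first and second set. Their summed level was 3127 to 3842 FPKM in the first set's controls and 2310 to 2560 with TGFbeta1. The sum weighs the highest markers most, and SFN alone ran from 16.4 to 462 FPKM in those controls. In that set 1 marker was called higher and 3 lower, against 20.9% of all genes called. In the second set none of the 10 was called (limma), with 3 at an unadjusted p under 0.05, against 0.321% of all genes called. Of 7 fibroblast markers only DCN in the first set, and DCN and PDGFRA in the second, had values. Of 6 leukocyte markers CD14 and CD74 had values, and of 5 endothelial markers KDR in both sets and TEK in the first. Summed fibroblast markers were at 0.489 to 0.685 FPKM in the first set's controls and 1.72 to 3.67 with TGFbeta1, and at 28.1 to 32.1 and 11.3 to 15.1 in the second. Summed leukocyte markers were at 2.61 to 3.17 and 0.511 to 0.724 FPKM in the first set and at 4.66 to 6.66 and 8.95 to 9.42 in the second. The endothelial sums stayed under 1 FPKM in every library. The part of these markers in the changes of the brakes was not tested, and in bulk RNA fewer cells of a type and less RNA per cell cannot be told apart.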

How the data were processed

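The authors deposited FPKM values per protein-coding transcript in 2 tables. Tools listed in the submitters' processing notes are HISAT2 2.0.4 and StringTie 1.2.3, besides FastQC and cutadapt, with hg19 as the build. Their settings, the strandedness and the annotation are not given in the sources used. The first table's headers give no unit, so FPKM was inferred there from the values and from StringTie. For the second table the authors deposited mean log2 values per group, a log2 change, a linear fold change, p-values and q-values per transcript, which are used only where named as theirs. The lowest mean of a listed transcript was 0.025 FPKM in the first table and 0.250 in the second, so changes were taken within a table.

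Transcripts were summed per symbol, with 196 symbols of the first table renamed through transcripts shared with the second (identifiers without version). Genes with a mean of at least 1 FPKM over the libraries in a fit were tested on log2(FPKM + 1), which understates changes of low genes, with limma 3.58.1 in R 4.3.3 (mean-variance trend, two-sided, Benjamini-Hochberg). The 3 fits were control against TGFbeta1 in each set and, over 12 libraries, the product of set and agent. The procedure was tested on simulated data, where the share of false calls ran above the nominal level and small changes were often missed. Python 3.11.15, numpy 2.4.6, pandas 2.3.3 and matplotlib 3.10.9 were used.

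Members and lists were chosen with earlier results of these data known. Named genes were the 9 members, TGFBI, per list and set the 2 called genes with the smallest p in each direction, and the 3 nearest to SMAD7. A few other genes are named with marker values, and 1 gene that the rule names is not reported here. The alternatives tried changed the pseudocount (to 0.1), the minimum (none, or 5 FPKM), the scaling (median of ratios, equal sum, quantiles) and limma's variance (no trend, or robust), and further used sums over transcripts found in both tables, 1 fit for both sets, each library left out, and the replicate number as a block.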

Additional observations from a re-analysis of the deposited data

Results flagged for a closer look

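For 5 of the brakes the change with TGFbeta1 differed between the sets by the test of the difference itself (limma, second set minus first on the log2 scale). It was -3.509 for PMEPA1, -1.951 for SKIL, -1.425 for SMAD7, -0.9058 for SMURF1 and -0.6173 for SKI, with adjusted p of 4.9e-07, 2.0e-06, 0.000246, 0.000435 and 0.0135. Set, replicate numbers and table go together, so what differed between the sets besides the table cannot be told apart. Groups of 3 libraries are too small for a test of single outlying libraries.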

How the results depend on the processing

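PMEPA1, SKIL, SMAD7 and SMURF1 kept direction and call in the first set and in the difference between sets under every alternative in which they were tested, as SKI did in the difference, and TGIF1 and BAMBI were called in none. The members called in the second set went from 0 to 1 without TGFbeta1 5 (range 0 to 1 over left-out libraries). With the replicate block, 1211 genes were called in the first set against 2186 and 0 in the second against 34, and SKI lost its first-set call (log2 change 0.4901, adjusted p = 0.0508). Same-numbered libraries correlated at 0.007 to 0.046 in their deviations over genes, and differently numbered ones at -0.053 to 0.014. With deviations taken from means of 3 libraries, these values cannot settle whether the numbers are pairs. The main fits did not use the numbers, and the block is given as an alternative. Leaving out 1 library gave 1354 to 2030 calls in the first set and 0 to 23 in the second. The second set had 60 calls in 1 fit for both sets, 17 with an equal sum and 20 without trend. SMAD7 changed by 1.196 to 1.758 over alternatives in the first set. It fell under the minimum in the second set without control 4 or control 5, and at a minimum of 5 FPKM in both sets. FPKM without counts gives no counting error, and 3 libraries a group limit what the intervals can show.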
